A study of Mus musculus with 6 samples.

Results

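The Wnt ligands, their receptors and their secreted inhibitors were followed in mouse embryo trunks with and without Arid3b. The members were all genes named Wnt plus a number, Fzd1 to Fzd10, Lrp5, Lrp6, Ror1, Ror2, Sfrp1 to Sfrp5, Dkk1 to Dkk4 and Wif1. By this rule 42 of the 32530 genes on the array were members, read by 49 of its 39429 probes. In this total a probe target without a gene symbol counts as a gene of its own. The rule used names alone and no measured value. They comprise 19 ligands, 14 receptors and 9 inhibitors, and 37 of the 42 were bright enough to be tested.

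RNA came from trunks at embryonic day 9.5, the body from the otic vesicle back to somite 15 with the forelimb buds. The wild-type group and the Arid3b-null group each had 3 samples, and each sample pooled 4 embryos, 24 embryos in all. Arid3b encodes a DNA-binding protein of the ARID family, and the labels name no other allele, no strain and no treatment in either group. The whole trunk was used, so a transcript can differ because fewer cells of a type were present or because each cell held less RNA, and these cannot be told apart. Replicates with the same number lay on the same slide, wild type always at the first array position and Arid3b-null at the second, so position and genotype cannot be told apart. The p-values measure the spread between pools, not between embryos.

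Wnt proteins are secreted, lipid-modified signals. In the canonical branch a Wnt binds a Frizzled receptor with the co-receptor Lrp5 or Lrp6, which stabilises beta-catenin and switches on TCF/LEF target genes. In the non-canonical branches Frizzled acts with partners such as Ror1 and Ror2 and steers cell polarity and movement. Sfrp proteins and Wif1 bind Wnts outside the cell, while Dkk1, Dkk2 and Dkk4 act on Lrp5 and Lrp6. In the embryo of this stage Wnt signals pattern the dorsal neural tube, the somites, the limb buds and the elongating tail end. The labelled tissue ended at somite 15 and leaves out the body behind it.

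Values are log2 signals relative to the 75th percentile of each array, which lay between 611 and 844 intensity units, and a change is the Arid3b-null mean minus the wild-type mean. A gene was said to rise or fall where its adjusted p from limma, corrected over all 19792 genes tested, was below 0.05. Arid3b read 2.18, 2.57 and 1.97 in wild type and 0.54, 0.65 and 0.46 in Arid3b-null, a change of -1.69 ± 0.17 (SE, n = 3 per group, limma adjusted p = 0.00154). It fell on its 2 other probes as well, by 3.23 and 1.90 on the log2 scale. The labelled tissue was checked against marker lists: limb and lateral plate genes were above background in 7 of 8 cases, somite genes in 6 of 7 and neural tube genes in 8 of 8. The neural tube and somite lists each had 3 genes that fell and 0 that rose in limma, with 0 higher at an unadjusted p below 0.05.

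Of the 37 tested members 15 rose, 2 fell and 20 did not pass. Over all genes 26.5% were called, 13.6% as higher and 12.9% as lower. The median change was 0.30 over the members and -0.04 over all genes. The groups did not overlap in 21 members, against 46.2% of all genes. In 19 of them every Arid3b-null array was above every wild-type array and in 2 every one was below, against 23.0% and 23.1% of all genes. In all 17 called members the groups did not overlap, so the sign was bound to be the same on all 3 slides. With the slide as a block, 12 of the 17 calls, 10 rises and both falls, also passed. The rises were spread over ligands (5 of 15), receptors (6 of 14) and inhibitors (4 of 8), and both falls were ligands. All members but Dkk4 among the 37 tested were well above background on every array, the counts above include Dkk4, and no member spot was saturated or missing.

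**Figure D1:**
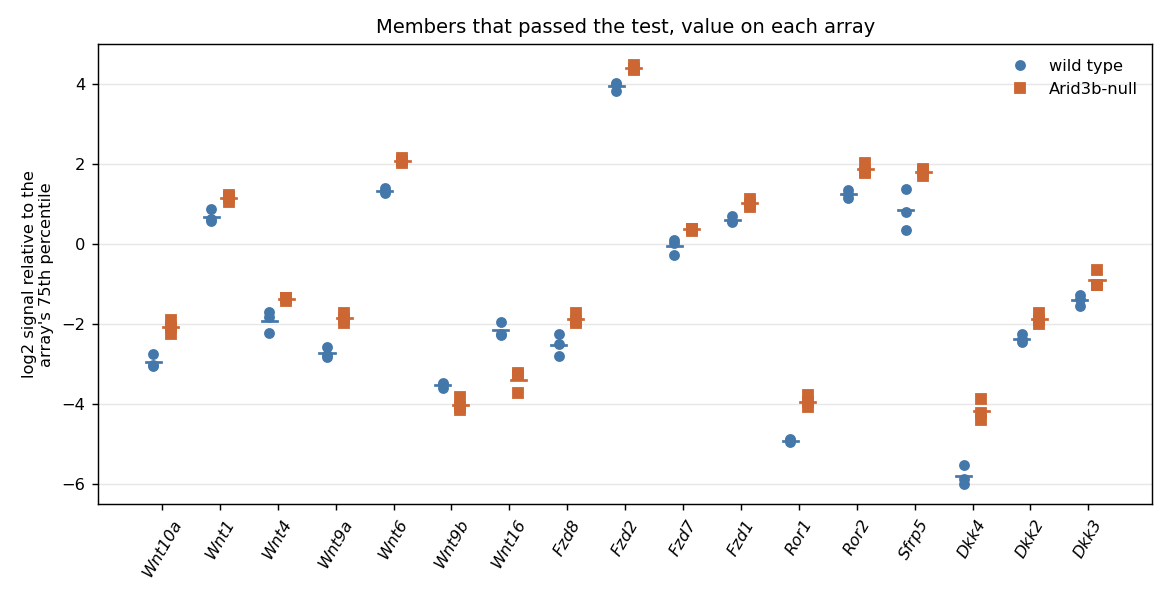
Log2 signal relative to the array's 75th percentile (y axis) of the 17 members that passed, on each of 3 wild-type arrays (circles) and 3 Arid3b-null arrays (squares), with group means as lines. The groups do not overlap for any of the 17; levels of different genes come from different probes and are not comparable.

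Among the canonical ligands Wnt10a and Wnt1 rose. Wnt10a, which acts in skin, hair and tooth development, read -3.04, -2.75 and -3.02 in wild type and -1.88, -2.06 and -2.24 in Arid3b-null. All 3 Arid3b-null pools were above all wild-type pools, and the level was 1.84-fold higher (log2 change 0.88 ± 0.14, SE, n = 3 per group, limma adjusted p = 0.0066). Wnt1, the signal of the dorsal midline of the neural tube, read 0.62, 0.88 and 0.57 in wild type and 1.19, 1.04 and 1.22 in Arid3b-null. The groups did not overlap, though on slide 2 they were only 0.16 apart. The rise was 1.38-fold (limma adjusted p = 0.0375), and with the slide as a block it did not pass (limma adjusted p = 0.0747). A second Wnt1 probe moved the same way by 1.22 ± 0.34 (SE, limma adjusted p = 0.0408 over 24420 probes, of which 26.3% were called).

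The other canonical ligands did not pass. Wnt10b, a ligand of bone and fat cell fate, read -5.51, -5.19 and -5.28 in wild type and -4.76, -4.97 and -5.05 in Arid3b-null. Its groups did not overlap, but the change of 0.40 had a limma adjusted p of 0.0736. Wnt3, a signal of the early primitive streak and of the limb ectoderm, differed by 0.30 with a 95% interval from -0.03 to 0.64. Wnt2 was scattered in wild type, with levels of -3.84, -3.46 and -2.89, and Arid3b-null pools lay within that range at -3.51, -3.44 and -3.68. Its difference of -0.15 had an interval from -0.72 to 0.43.

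The remaining 4 canonical ligands could not be tested, and neither could Sfrp4 among the inhibitors. Wnt2b, Wnt3a and Wnt8b were well above background on 0 of 6 arrays, with signals of 3.73 to 5.95, 1.51 to 3.31 and 1.63 to 5.14 units. Wnt3a is a main signal of the dorsal midline and of the tailbud, and the labelled tissue ended at somite 15. Wnt8a gave 10.8 to 22.7 units and Sfrp4 at most 14.8, and each was above background on 1 wild-type and 2 Arid3b-null arrays. These probes give no usable difference.

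Of the non-canonical ligands, Wnt4 rose and Wnt5a, Wnt5b and Wnt11 did not pass. Wnt4, which acts in kidney, gonad and muscle formation, read -1.82, -1.70 and -2.23 in wild type and -1.34, -1.33 and -1.43 in Arid3b-null. The Arid3b-null pools were close together and above every wild-type pool, a 1.46-fold rise (limma adjusted p = 0.0415). Wnt11, a ligand of cell movement, read -2.28, -2.26 and -2.38 against -1.76, -2.11 and -1.76. Its groups did not overlap either, but the change of 0.43 (95% interval 0.12 to 0.74) had a limma adjusted p of 0.0528. Wnt5a, which drives outgrowth of limb and tail, differed by -0.09 (interval -0.39 to 0.22) and its relative Wnt5b by 0.08 (interval -0.17 to 0.34).

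The median change was 0.40 over the 5 tested canonical ligands and 0.26 over the 4 non-canonical ones. On the 3 slides the canonical median was 0.57, 0.22 and 0.35 and the non-canonical median 0.24, 0.11 and 0.39. The canonical median was the larger on slides 1 and 2 and the smaller on slide 3, and the difference between the classes was not tested. With the background modelled by normexp from each array's median background, the canonical median was 0.17 and the non-canonical 0.20, so the order of the classes turned.

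**Figure D2:**
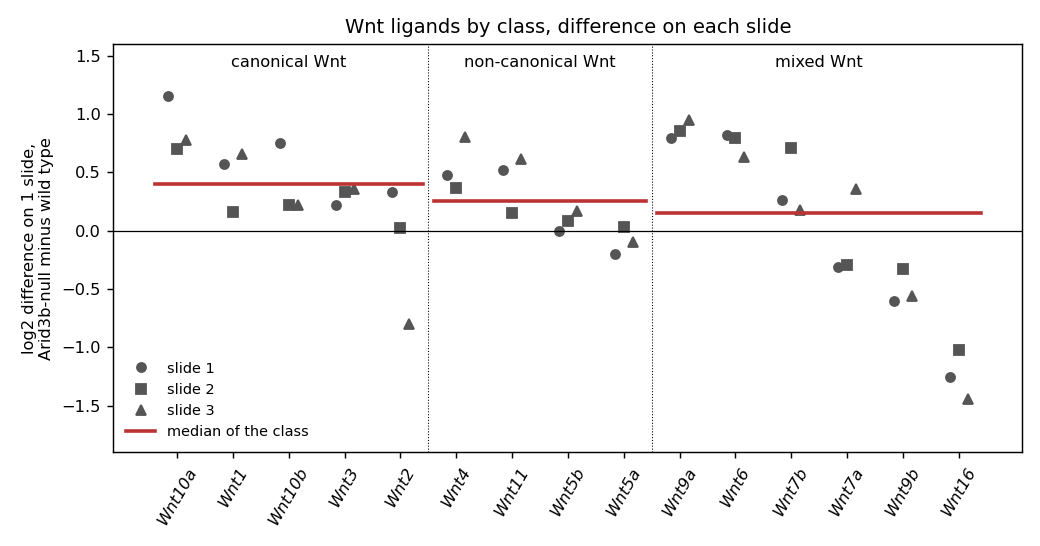
Log2 difference between the Arid3b-null and the wild-type array of each slide (y axis) for the 15 tested Wnt ligands, grouped by class, with the median of each class's fitted changes as a line. Wnt1, Wnt4, Wnt6, Wnt9a and Wnt10a, which rose, lie above 0 on all 3 slides. So do Wnt3, Wnt7b, Wnt10b and Wnt11, which did not pass. Wnt16 and Wnt9b lie below 0 on all 3, and Wnt2, Wnt5a, Wnt5b and Wnt7a on both sides.

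The ligands used in both branches, or whose branch is less settled, held 2 rises and both falls among the 6 tested. Wnt6, a ligand of surface ectoderm that acts on somites, read 1.33, 1.29 and 1.39 in wild type and 2.15, 2.08 and 2.02 in Arid3b-null. The pools of each group were close together and the groups well apart, a 1.68-fold rise (log2 change 0.75 ± 0.10, SE, limma adjusted p = 0.00343). Wnt9a, best known from joint formation, read -2.77, -2.56 and -2.82 in wild type and -1.98, -1.71 and -1.87 in Arid3b-null. It rose 1.82-fold with no overlap (limma adjusted p = 0.00475). The differences on the 3 slides were 0.82, 0.80 and 0.63 for Wnt6 and 0.79, 0.85 and 0.95 for Wnt9a.

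Wnt16, a ligand of bone and of blood stem cell formation, had the larger of the 2 falls. It read -1.95, -2.24 and -2.27 in wild type and -3.20, -3.27 and -3.72 in Arid3b-null, every Arid3b-null pool below every wild-type pool. The level was 2.36-fold lower (log2 change -1.24 ± 0.17, SE, limma adjusted p = 0.00425). A second probe read -2.22, -2.66 and -2.72 against -3.52, -3.66 and -4.38 and fell by 1.32 (limma adjusted p = 0.0125). With normexp from each array's median background the change was -0.69 on the log2 scale and still passed.

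Wnt9b, a signal of the kidney duct and of the facial ectoderm, read -3.46, -3.49 and -3.59 in wild type and -4.06, -3.82 and -4.14 in Arid3b-null. It was 1.41-fold lower (limma adjusted p = 0.0273), but under that normexp correction the change was -0.16 and did not pass (limma adjusted p = 0.375). Wnt7b differed by 0.38 (limma adjusted p = 0.208) and Wnt7a, the dorsal ectoderm signal of the limb, by -0.08 (limma adjusted p = 0.721). Neither had groups apart.

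Several Wnt genes are direct neighbours in the RefSeq gene order (GRCm38.p6). Wnt6 and Wnt10a, one such pair, both rose. The neighbours Wnt9b and Wnt3 had changes of -0.49 and 0.30, of which the first passed. The neighbours Wnt10b and Wnt1 had changes of 0.40 and 0.46, of which the second passed. The neighbour of Wnt9a is Wnt3a, which was not above background.

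Markers of 2 tissues known to make Wnt ligands also differed between the groups. These 2 lists come from a larger set of marker lists. Of the others, 2 of 5 ridge genes and 1 of 5 endothelial genes rose, with 0 falls in either list. Limb and lateral plate genes had 1 rise and 1 fall among 7, erythroid genes 2 falls among 5, and heart genes 0 calls among 7. Neural tube and somite genes are given above. The list named for surface ectoderm, a source of Wnt6, holds 11 markers. From which epithelium of the trunk their signal came was not measured. Of these 11 (keratins, Epcam, Cdh1, Tfap2a, Grhl2, Grhl3, Trp63, Cldn6 and Esrp1), 6 rose and 0 fell in limma, and 0 were lower at an unadjusted p below 0.05. Over all genes 13.6% rose and 12.9% fell. All 11 were above background on all 6 arrays. Their summed signal, in multiples of the 75th percentile, was 29.1 to 42.9 in wild-type pools and 62.7 to 73.1 in Arid3b-null pools. Bright genes weigh most in this sum, among them Krt18, Krt19 and Krt8. Their mean log2 levels in Arid3b-null were 5.23, 3.71 and 2.66. Epcam, Cdh1, Grhl3 and Cldn6 were among the 5 markers of the list that did not pass. Krt8, a keratin of simple epithelia, rose 2.20-fold (limma adjusted p = 0.0064). For Wnt1 the matching list is the roof plate and dorsal neural tube, where 5 of 11 rose and 0 fell (0 lower at an unadjusted p below 0.05). Lmx1b, Olig3 and Zic1 differed by -0.32, -0.21 and -0.13 and did not pass. Over the 10 of these genes with a value on every array, the summed signal was 11.5 to 12.6 in wild-type pools and 15.1 to 16.5 in Arid3b-null pools, with no overlap. The sum leaves out Zic1, the brightest gene of the list, which lacked a value on 1 Arid3b-null array. Its mean log2 level was 3.29 in wild type and 3.16 in Arid3b-null. Bright genes weigh most here too, among them Msx1, with mean levels of 1.66 in wild type and 2.38 in Arid3b-null. The part of either list in the ligand changes was not tested.

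Among called members Wnt10a, Dkk3, Dkk4, Fzd2 and Fzd8 had no matched RefSeq promoter, while 10 that rose and 2 that fell had one. Ror2 was among these and held none of the 3 motifs named below. Only some of these promoters are printed. They are those of Wnt6, Wnt9a, Wnt16 and Ror1, which passed, and of Dkk1, a known TCF/LEF target that did not pass here. Each is the 250 bases before the RefSeq start (GRCm38.p6), on the gene's strand, 5′ to 3′. Capitals mark CTTTGA (core of the TCF/LEF site) and ACGTG or GCGTG (core of the hypoxia response element) on either strand, where a match on the other strand shows its reverse complement and matches may overlap. Wnt6 lies at chr1:74771642-74771891 (+), Wnt9a at chr11:59306680-59306929 (+), Wnt16 at chr6:22287977-22288226 (+), Ror1 at chr4:100095541-100095790 (+) and Dkk1 at chr19:30549497-30549746 (-).
Wnt6: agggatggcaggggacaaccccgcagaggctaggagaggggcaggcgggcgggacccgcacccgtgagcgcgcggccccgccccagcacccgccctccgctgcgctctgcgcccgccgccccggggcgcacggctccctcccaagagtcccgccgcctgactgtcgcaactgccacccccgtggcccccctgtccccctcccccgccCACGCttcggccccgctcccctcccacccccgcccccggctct
Wnt9a: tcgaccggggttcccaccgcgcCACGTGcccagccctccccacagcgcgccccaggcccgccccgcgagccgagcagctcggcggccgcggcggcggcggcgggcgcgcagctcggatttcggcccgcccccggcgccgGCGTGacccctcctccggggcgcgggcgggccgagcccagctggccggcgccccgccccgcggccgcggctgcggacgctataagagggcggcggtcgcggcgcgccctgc
Wnt16: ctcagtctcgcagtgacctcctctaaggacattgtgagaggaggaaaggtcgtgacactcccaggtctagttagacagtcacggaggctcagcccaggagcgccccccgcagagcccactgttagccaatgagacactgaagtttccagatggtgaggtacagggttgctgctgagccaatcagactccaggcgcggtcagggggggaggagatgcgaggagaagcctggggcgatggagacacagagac
Ror1: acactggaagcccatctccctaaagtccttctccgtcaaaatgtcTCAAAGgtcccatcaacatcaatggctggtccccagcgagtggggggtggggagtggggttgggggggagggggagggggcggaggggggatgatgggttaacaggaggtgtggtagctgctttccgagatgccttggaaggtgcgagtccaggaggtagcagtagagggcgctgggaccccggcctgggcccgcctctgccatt
Dkk1: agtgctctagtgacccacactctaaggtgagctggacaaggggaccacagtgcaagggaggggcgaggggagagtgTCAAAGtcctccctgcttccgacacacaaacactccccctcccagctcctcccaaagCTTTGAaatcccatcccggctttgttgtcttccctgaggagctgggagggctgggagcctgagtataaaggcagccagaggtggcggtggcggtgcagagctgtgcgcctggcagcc
Wnt6 held 1 GCGTG, Wnt9a 1 GCGTG and 2 overlapping ACGTG (1 on each strand), Wnt16 none of the 3, Ror1 1 CTTTGA and Dkk1 2. RefSeq promoters were matched for 28 of the 42 members. CTTTGA stood in 5 of these 28 genes (17.9%) against 15.8% of the 27018 genes in the table, and in 2 of 10 that rose. ACGTG stood in 5 of 28 (17.9%) against 18.5%. GCGTG stood in 14 of 28 against 30.9%, in 5 of 10 that rose and 7 of 13 that did not pass. Member promoters had a median GC content of 68.0% against 52.4% over all promoters. A match is only a run of letters, and binding was not measured.

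Among the 10 Frizzled receptors, which bind Wnts at the cell surface, 4 rose and 0 fell in limma, and 0 were lower at an unadjusted p below 0.05. Fzd2 read 4.02, 4.0 and 3.82 in wild type and 4.37, 4.34 and 4.48 in Arid3b-null, a 1.37-fold rise (limma adjusted p = 0.0249). Fzd8 read -2.50, -2.24 and -2.80 against -1.92, -1.96 and -1.72, a 1.56-fold rise (limma adjusted p = 0.0312). The pools of the 2 groups did not overlap for either receptor. Fzd1 read 0.58, 0.70 and 0.56 against 1.0, 1.13 and 0.92, a 1.32-fold rise (limma adjusted p = 0.0352). Fzd7, a receptor of early mesoderm, read 0.10, 0.02 and -0.26 against 0.39, 0.34 and 0.39, a 1.34-fold rise (limma adjusted p = 0.0498). For all 4 the lowest Arid3b-null pool was above the highest wild-type pool. With the slide as a block none of the 4 passed, with limma adjusted p values of 0.0568 for Fzd2, 0.0616 for Fzd8, 0.0508 for Fzd1 and 0.0730 for Fzd7.

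The other Frizzled genes did not pass. Fzd6, which acts in planar polarity, had groups that did not overlap and a change of 0.27 (limma adjusted p = 0.175). Fzd3 differed by 0.20, Fzd4 by 0.12, Fzd10 by -0.05, Fzd9 by -0.09 and Fzd5 by -0.27. The 2 probes of Fzd5 disagreed in sign, the second differing by 0.18. Second probes of Fzd2 and Fzd7 differed by 0.52 and 0.29, upward as the first but without passing (limma adjusted p = 0.0647 and 0.526).

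The canonical co-receptors Lrp5 and Lrp6 did not pass. Lrp5 differed by 0.02 (95% interval -0.24 to 0.29) and Lrp6 by -0.0031 (interval -0.47 to 0.47), while a second Lrp6 probe differed by 0.37 (limma adjusted p = 0.125). Ror1 and Ror2, tyrosine kinase receptors for Wnt5a-type ligands, both rose. Ror2 read 1.25, 1.36 and 1.15 in wild type and 1.80, 2.02 and 1.78 in Arid3b-null. The groups were clearly apart, with a 1.53-fold rise (log2 change 0.62 ± 0.12, SE, limma adjusted p = 0.0123).

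Ror1 read -4.87, -4.95 and -4.90 in wild type and -3.95, -3.77 and -4.07 in Arid3b-null, a 1.96-fold rise (limma adjusted p = 0.0025). Its pools agreed closely within each group. The signal was faint, at 19.8 to 45.2 units. With normexp from each array's median background the change was 0.37 and did not pass (limma adjusted p = 0.0609).

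**Figure D3:**
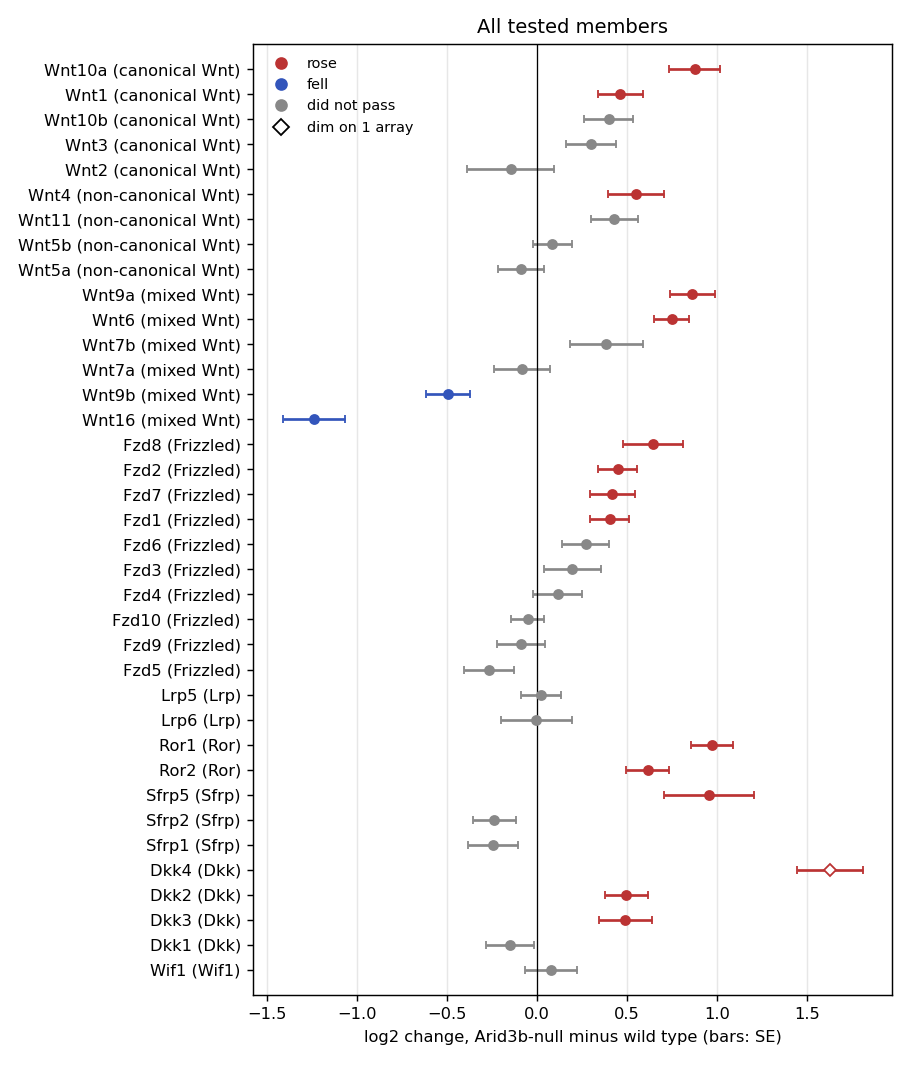
Log2 change, Arid3b-null minus wild type (x axis), with SE bars for the 37 tested members, ordered by class. Filled red points rose, blue points fell and grey points did not pass; the open diamond is Dkk4, which was not above background on 1 wild-type array.

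Of the secreted inhibitors, 3 of 4 Dkk genes (2 of 3 without Dkk4, which entered the test only through its Arid3b-null arrays) and 1 of 3 tested Sfrp genes rose, and 0 of 8 fell in limma, none of them lower even at an unadjusted p below 0.05. Dkk2 read -2.46, -2.25 and -2.38 in wild type and -1.89, -1.71 and -1.99 in Arid3b-null, a 1.41-fold rise (limma adjusted p = 0.0255). Dkk3, a divergent member of the family, read -1.36, -1.27 and -1.53 against -1.02, -0.64 and -1.02, also 1.41-fold (limma adjusted p = 0.0491). Neither gene's groups overlapped. Dkk1, a Wnt inhibitor that acts in head and limb development, differed by -0.15 (interval -0.47 to 0.17).

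Dkk4, which like Dkk1 acts on Lrp5 and Lrp6, was above background on 2 of 3 wild-type and all 3 Arid3b-null arrays. It read -5.98, -5.52 and -5.87 in wild type and -3.87, -4.40 and -4.21 in Arid3b-null, 3.09-fold higher (log2 change 1.63 ± 0.18, SE, limma adjusted p = 0.00224). All Arid3b-null pools were more than 1 log2 unit above the highest wild-type pool, and the slide differences were 2.11, 1.12 and 1.66. The Dkk4 signal was faint, at 10.5 to 42.7 units. With normexp from each array's median background its change was 0.55 and still passed (limma adjusted p = 0.0179).

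Sfrp5, which binds Wnts outside the cell, read 0.37, 1.39 and 0.81 in wild type and 1.71, 1.83 and 1.88 in Arid3b-null. The wild-type pools were spread widely (SD 0.51, against 0.09 in Arid3b-null), but all lay below the Arid3b-null pools, a 1.94-fold rise (limma adjusted p = 0.0329). Sfrp1 and Sfrp2 each differed by -0.24 (limma adjusted p = 0.243 and 0.183) and Wif1 by 0.08. The fall side of the interval for Sfrp2 reached -0.52.

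The calls on members differed in how they stood up to leaving out 1 pool. Wnt6, Wnt9a, Wnt10a, Wnt16, Dkk4, Ror1 and Ror2 passed whichever of the 6 pools was left out, though Dkk4 was tested only through its Arid3b-null arrays. Fzd1, Fzd2, Fzd7 and Dkk3 failed to pass in each of the 6 cases, and Fzd8, Sfrp5, Wnt1 and Wnt4 in all but that without wild-type pool 2. Wnt9b failed in all but that without Arid3b-null pool 2, and Dkk2 without wild-type pool 1 or 3 and without Arid3b-null pool 1 or 2. Limma adjusted p values in the cases that failed were 0.0504 to 0.123. Wnt11 passed without Arid3b-null pool 2 (limma adjusted p = 0.0287).

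**Figure D4:**
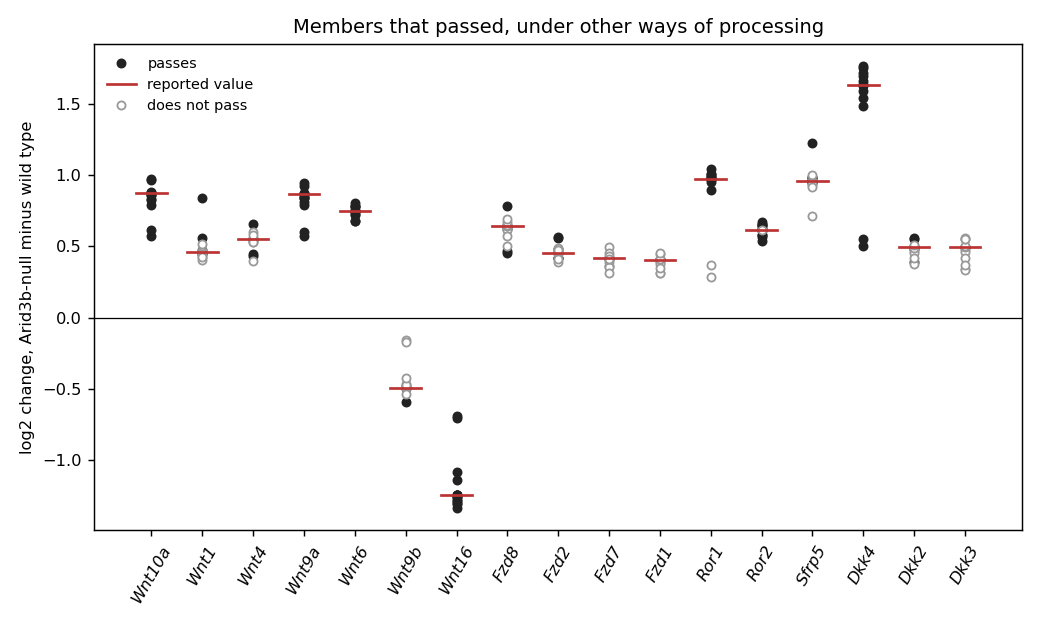
Log2 change, Arid3b-null minus wild type (y axis), of the 17 members that passed, as reported (line) and under 16 other ways of processing (points, filled where the adjusted p was below 0.05); normexp with local background is left out. Wnt6, Wnt9a, Wnt10a and Wnt16 have filled points throughout. Dkk4, which entered the test only through its Arid3b-null arrays, has them in each of the 15 ways that tested it.

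Other genes of the pathway were taken from lists of the wider pathway. In all 18 of the 70 tested genes (25.7%) rose and 7 (10%) fell, with a median change of 0.25. Over all genes 13.6% rose and 12.9% fell, with a median change of -0.04. Of the lists below, the other modulators had 21.4% and 7.14%, and the planar polarity genes 20% and 13.3%. The list for Wnt secretion and glypicans had 5 rises among 6 genes. Porcn, the acyltransferase that attaches lipid to Wnts before secretion, read -0.73, -0.78 and -0.79 in wild type and 0.24, 0.45 and 0.46 in Arid3b-null. That is a 2.22-fold rise with the groups far apart (limma adjusted p = 0.00127). Gpc6 and Gpc4, cell-surface glypicans, rose 1.66-fold and 1.43-fold (limma adjusted p = 0.00721 and 0.0162), but Gpc4 did not pass without wild-type pool 1 (limma adjusted p = 0.0682).

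Receptor turnover genes and further modulators moved in both directions. Of 8 tested R-spondin, Lgr and ubiquitin ligase genes, 3 rose and 1 fell. Rnf43, which removes Frizzled from the surface, rose 2.05-fold (limma adjusted p = 0.0022), and Lgr5, an R-spondin receptor, rose 1.48-fold (limma adjusted p = 0.0162). Rspo3, a secreted enhancer of Wnt signalling, was 1.55-fold lower (limma adjusted p = 0.0187). Of 14 other modulators 3 rose and 1 fell. Sostdc1, a secreted Wnt and Bmp antagonist, rose 2.13-fold (limma adjusted p = 0.00367), and Kremen1, a Dkk receptor, 1.57-fold (limma adjusted p = 0.0146). Reck, a partner of Wnt7 signalling, rose 1.79-fold (limma adjusted p = 0.00435), but a second probe differed by 0.29 and did not pass (limma adjusted p = 0.485). Without wild-type pool 1, Lgr5, Rspo3 and Kremen1 did not pass (limma adjusted p = 0.0663, 0.0614 and 0.0579), and Lgr5 and Rspo3 did not pass without wild-type pool 2 or Arid3b-null pool 1 either (limma adjusted p from 0.0517 to 0.0575).

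Among 16 intracellular components 0 rose in limma, and 1 was higher at an unadjusted p below 0.05. In limma 2 fell, a share of 12.5%, near the 12.9% of all genes that fell. Those 2 were Bcl9 and Bcl9l, beta-catenin co-factors, which were 1.63-fold and 1.95-fold lower (limma adjusted p = 0.0149 and 0.0235). Ctnnb1, beta-catenin itself, differed by -0.06 (limma adjusted p = 0.706). Bcl9 did not pass without Arid3b-null pool 3 (limma adjusted p = 0.0504), nor Bcl9l without wild-type pool 1, Arid3b-null pool 1 or Arid3b-null pool 2 (limma adjusted p = 0.0531, 0.0689 and 0.0673).

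Of 11 tested genes that are often read as Wnt targets, 4 rose and 1 fell. Sp5, a direct target of the caudal embryo, rose 2.30-fold (limma adjusted p = 0.00132). Tbx6, a gene of presomitic mesoderm, rose 3.15-fold on its first probe (limma adjusted p = 0.000568), while its second probe differed by -0.16 and did not pass (limma adjusted p = 0.505). The labelled tissue ended at somite 15, and where Sp5 and Tbx6 were expressed in it was not measured. Ccnd1, a cyclin of cell division, was 1.57-fold lower (limma adjusted p = 0.00528). Axin2 and Lef1, targets common to many tissues and named here after their values were seen, differed by 0.13 and 0.03 and did not pass (limma adjusted p = 0.524 and 0.903). The 15 planar polarity genes held 3 rises and 2 falls: Celsr3 and Celsr2, cadherins of planar polarity, were 2.31-fold and 1.84-fold lower, and Fuz, a gene of cilia and polarity, rose 1.69-fold (limma adjusted p = 0.00131, 0.00615 and 0.0049).

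**Figure D5:**
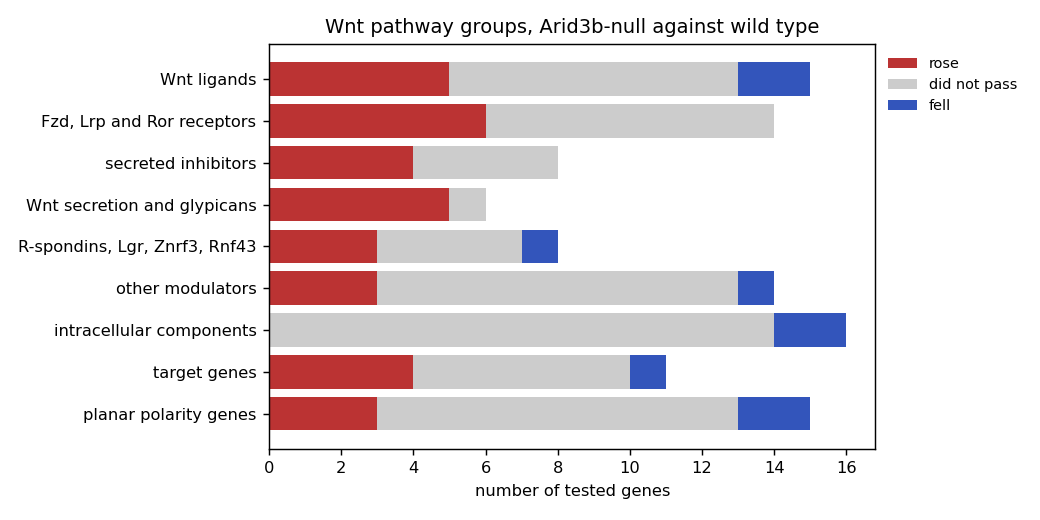
Number of tested genes (x axis) that rose, did not pass or fell in Arid3b-null trunks, for the members split by role and for 6 lists of the wider pathway. Wnt secretion and glypicans have 5 of 6 genes that rose, and the intracellular components have 0 of 16. Over all genes 13.6% rose.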

How the data were processed

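Total RNA of 3 wild-type and 3 Arid3b-null trunk pools was made into Cy3-labelled aRNA and hybridised to Agilent arrays with a single dye, per the labels' protocols. Per the file headers, Feature Extraction 10.7.3.1 produced the deposited intensity values; the processed signal is already background-subtracted. The deposited value table holds log2 values of 24181 probes whose column medians are all 6.77; how it was normalized was not given in the sources used here, and it served as an alternative.

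Each processed signal was put on the log2 scale and set against its array's 75th percentile over non-control spots. Outlier spots (100 to 169 per array) were set to missing. Accessions were matched to RefSeq symbols (GRCm38.p6): 67.0% of 39429 probes got 1 symbol. A target without a symbol counted as its own gene, and 14208 of the 19792 genes tested had a symbol. Shares over all genes therefore include targets without one. A probe was tested if well above background on all 3 arrays of a group, and the brightest tested probe stood for its gene. Tests were limma 3.58.1 (lmFit, eBayes, R 4.3.3), two-sided, with Benjamini-Hochberg adjustment over 19792 genes; p-values of second probes were adjusted over 24420 probes. The fit was tested on simulated data. The number of arrays limits precision.

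Same-numbered replicates shared a slide, per the file headers. Their deviations from the group means correlated at 0.163, 0.387 and 0.278, against -0.346 to 0.117 for other pairs, so the block is given beside results whose call it changes.

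All members are accounted for. Of each pathway list, the up to 3 called genes with the smallest adjusted p are named, and where none was called up to 2 with the smallest p. Krt8, Ctnnb1, Axin2 and Lef1 were named outside this rule, after their values were seen. Members, ligand classes, lists and motifs were chosen with earlier results of these data known. Alternatives were other scaling, background correction, filter, probe rule, the deposited table, the slide block and leaving out each pool.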

Additional observations from a re-analysis of the deposited data

How the results depend on the processing

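Among the 17 called members, Dkk4 entered the test only through its Arid3b-null arrays. Where tested, it passed in all settings but normexp with local background. Wnt6, Wnt9a, Wnt10a and Wnt16 passed in every way of processing except normexp with local background. That setting ended nearly all calls: 2 genes rose and 0 fell over all genes, and 0 members rose and 0 fell in limma, with 5 members and 1901 genes at an unadjusted p below 0.05. It turned the canonical median to -0.53, the non-canonical median to -0.033, Dkk2 to -0.10, Dkk4 to -0.48, Fzd8 to -0.078, Ror1 to -0.64, Wnt4 to -0.059 and Wnt9a to -0.038, and moved the median of all genes to -0.22. Leaving out spots whose local background was over 2 times the array's median (2 on wild-type array 2, 23 on wild-type array 3, 9 on Arid3b-null array 3), an alternative chosen after seeing the data, gave 10 members that rose, 1 that fell and a canonical median of 0.15. With each array's median background 11 rose, 1 fell and the canonical median was 0.17. Scaling to the median left 7 that rose and 1 that fell, and the deposited log2 values left 8 and 1. No filter on dim probes left 5 and 1, with 1288 and 998 over all genes. Over all genes, 21.6% were called with scaling to the median, 18.8% with the deposited values and 7.03% with no filter. With each array's median background that share was 22.9%, and without spots of high local background 21.5%. Leaving out 1 pool gave 6 to 11 members that rose and 1 to 2 that fell, and 1661 to 2047 and 1204 to 2037 over all genes. With the replicate block (slide) 10 members rose and 2 fell, 4776 genes were called, and Fzd1, Fzd2, Fzd7, Fzd8 and Wnt1 lost their call. Requiring all 6 arrays above background removed Dkk4 and let Wnt11 pass (limma adjusted p = 0.0484). Ror2 lost its call with no filter (limma adjusted p = 0.0575), and Gpc4, Lgr5, Rspo3, Kremen1, Bcl9 and Bcl9l each lost theirs in some of these settings. Faint signal limits Dkk4, Ror1, Wnt10b and the untested members. No cause of these changes was tested.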
